A study of Homo sapiens with 4 samples.

Results

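Mitochondrial chaperones and proteases fold, refold and degrade the proteins of the organelle, and the 10 genes described here encode well-known members of both groups. They were taken by symbol as HSPD1, HSPE1, HSPA9, DNAJA3, TRAP1, LONP1, CLPP, CLPX, YME1L1 and AFG3L2, so 10 of the 26364 gene symbols in the count table. All 10 passed the filter on low counts and were among the 14024 genes tested. RNA was sequenced from SW480 cells, a human line from a primary colon tumor, and from SW620 cells, a line from a lymph node metastasis of the same patient. Each line gave 1 library labeled SHMT2 knockdown and 1 labeled control, which makes 4 libraries in all. SHMT2 is the mitochondrial serine hydroxymethyltransferase, which takes a one-carbon unit from serine and releases glycine. In the study's knockdown system a lentiviral hairpin against SHMT2 is switched on by doxycycline in puromycin-selected cells. The sources used here do not say whether control cells also received doxycycline, or which hairpin was used for the sequenced cells. A line with 1 library of each kind has no replicate of its own. The P values below measure only the spread between these 4 libraries, pooled over all genes.

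Most mitochondrial proteins are made in the cytosol and enter the matrix unfolded. HSPA9, the mitochondrial Hsp70, pulls them in and holds them with J-domain partners such as DNAJA3, and the HSPD1 barrel with its HSPE1 lid then encloses them while they fold. TRAP1 is the Hsp90 of the matrix. LONP1 and the CLPX-CLPP pair degrade damaged matrix proteins with energy from ATP, while YME1L1 and AFG3L2 do the same at the inner membrane. When unfolded proteins build up in the matrix, cells can raise the transcription of several of these genes, a program known as the mitochondrial unfolded protein response.

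HSPD1 and HSPE1 lie head to head on chromosome 2, and the sequence between them is shown because both mRNAs start from it. RefSeq places the HSPD1 start at base 197500274 on the minus strand and the HSPE1 start at base 197500379 on the plus strand, 105 bases apart (build GRCh38.p14). The first line is the plus strand at chr2:197500129-197500428, from 250 bases before to 50 bases after the HSPE1 start. Its capitals mark CACGTG, the E-box read by MYC and related factors, which lies 22 bases before the HSPE1 start and 88 bases before the HSPD1 start. The second line is a stretch upstream of a second annotated HSPD1 start, on the minus strand at chr2:197500043-197500090. It does not reach that start. In that line the capitals mark 2 copies of TTCTGGAA, the inverted unit of the heat shock element that HSF1 reads. The copies begin at positions -245 and -235 from the second start. The other lines are the E-boxes of HSPA9 at chr5:138575390-138575445 and LONP1 at chr19:5720165-5720220, both on the minus strand, with CACGTG in capitals.
HSPE1 and HSPD1 shared promoter: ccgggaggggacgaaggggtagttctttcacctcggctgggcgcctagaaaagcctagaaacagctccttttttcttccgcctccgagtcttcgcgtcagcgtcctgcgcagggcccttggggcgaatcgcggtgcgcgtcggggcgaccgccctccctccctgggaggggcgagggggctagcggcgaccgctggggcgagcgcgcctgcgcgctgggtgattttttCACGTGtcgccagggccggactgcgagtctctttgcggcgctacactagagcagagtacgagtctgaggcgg
HSPD1 second start: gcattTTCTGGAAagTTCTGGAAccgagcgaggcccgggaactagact
HSPA9: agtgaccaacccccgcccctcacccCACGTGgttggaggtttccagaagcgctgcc
LONP1: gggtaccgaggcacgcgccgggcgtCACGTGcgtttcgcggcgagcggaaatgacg

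RefSeq promoter windows of this kind were at hand for 8 of the 10 genes, in 10 windows, while CLPP and YME1L1 had no entry. CACGTG reads the same on both strands and was found in windows of 4 genes, HSPD1, HSPE1, HSPA9 and LONP1, where HSPD1 and HSPE1 share the same copy. Of all 35116 promoter windows 7.26% held it. The heat shock unit TTCNNGAA was found in windows of HSPD1 and HSPA9 and in 7.74% of all windows. The opposite arrangement GAANNTTC, which at HSPD1 overlaps both copies of the first, was found in HSPD1 and in 6.77% of all windows. GCGCANGCG, the core read by NRF1 on either strand, was found in 5 genes (HSPD1, HSPE1, CLPX, DNAJA3 and LONP1) and in 7.52% of all windows, with HSPD1 and HSPE1 again sharing the same copy. TGACGTCA, the cAMP response element, was found in TRAP1 and in 1.85% of all windows, and CCAAT, the NF-Y box, in CLPX and DNAJA3 and in 34.6%. TGATGNAA, the core of the composite site for CHOP and ATF4, was in 0 windows of the 10 genes and in 3.62% of all. The 7 motifs were searched on both strands and were picked with these sequences in view, and a match is a run of letters rather than a measured binding site.

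The targeted gene was checked first. SHMT2 counts dropped from 2661 in the control to 205 in the knockdown library of SW480, and from 3751 to 640 in SW620. Levels are given as CPM, that is counts scaled to a common library total with TMM, which corrects for library composition. On that scale 11.2% of the control level was left in SW480 and 6.95% in SW620. SHMT2 fell by 3.54 on the log2 scale (SE 0.12, 4 libraries; edgeR's quasi-likelihood test, Benjamini-Hochberg adjusted p = 1.06e-167), so the knockdown and control labels of all 4 libraries held. The drop does not check the labels of the cell lines. The libraries held 5530129 to 13774288 counts, and the knockdown library was the shallower one in SW480 and the deeper one in SW620. Of 12 markers of colorectal epithelium, 8 passed the filter, among them EPCAM with 1831 to 5978 counts and KRT8 with 16537 to 60779 counts. Of these 8, 3 were called after knockdown by edgeR, with KRT8 lower at -0.34 (adjusted p = 0.00406), KRT18 lower at -0.34 (adjusted p = 0.00537) and CDH1 higher at 0.45 (adjusted p = 0.0210) on the log2 scale. VIL1 and CDH17 were near absent in SW480, with 2 counts or fewer in each library, and CDX1 was at 0 in all 4 libraries. Of 9 markers of leukocytes, macrophages, fibroblasts, endothelium and smooth muscle, 4 passed the filter, with at most 203 counts in a library. After knockdown CD68 and ACTA2 had an unadjusted P within 0.05, both lower, with edgeR adjusted p of 0.488 and 0.341. The leukocyte markers PTPRC and CD3E had 0 to 2 counts. In bulk RNA of a cell line, fewer cells that express a gene and less of its RNA per cell cannot be told apart.

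SHMT2 knockdown left the levels of the 10 mRNAs close to those of control cells, and 0 of 10 were called by edgeR's quasi-likelihood test at an adjusted p under 0.05. Of all genes tested, 1.66% were called. None of the 10 reached an unadjusted P of 0.05, against 9.06% of all genes, and the DESeq2 Wald test called 0 of the 9 for which it gave an adjusted p. Fold changes of 9 of the 10 had 95% intervals that lay between 0.798-fold and 1.25-fold, and HSPE1, with far fewer counts, had an interval from 0.584-fold to 1.06-fold. The median log2 fold change of the 10 was 0.003, and that of all genes tested was 0.008. Together the 10 genes took 0.313% of the counts in control SW480 cells, 0.302% in knockdown SW480 cells, 0.302% in control SW620 cells and 0.338% in knockdown SW620 cells. A missed threshold does not show that levels were equal. The intervals rest on a spread shared by all genes rather than on each gene's own. A gene whose own spread is larger could hold changes beyond its interval.

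**Figure D1:**
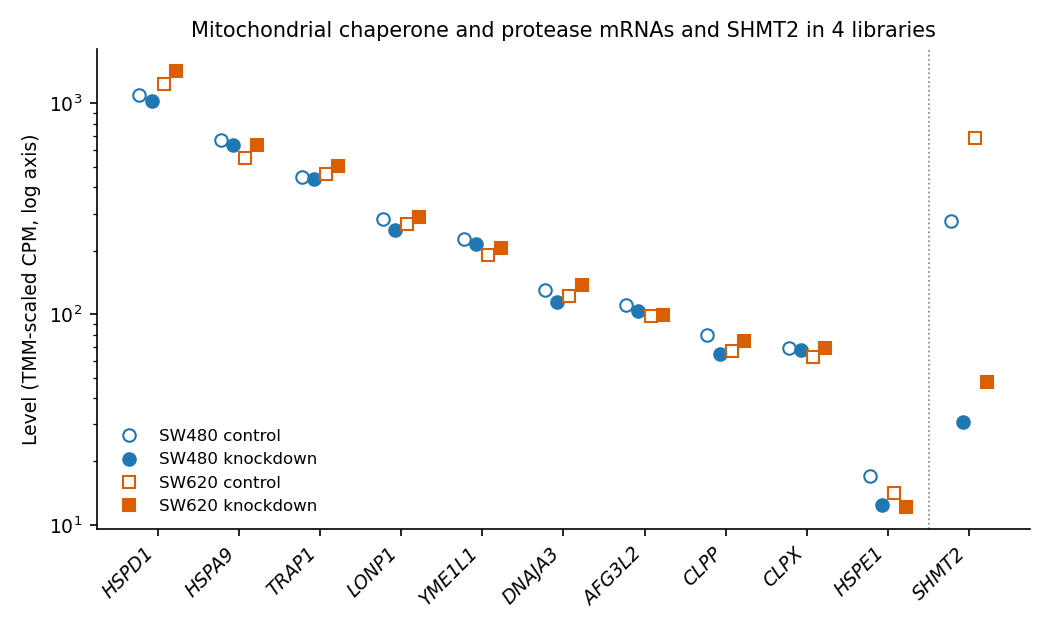
Level of each mRNA in each library, in TMM-scaled CPM on a log axis, with SHMT2 at the right of the dotted line for comparison. Open symbols are control cells and filled symbols SHMT2-knockdown cells, blue circles are SW480 and orange squares SW620. The 4 symbols of each of the 10 genes lie within 1.41-fold of each other, while SHMT2 falls from 277 to 30.9 in SW480 and from 688 to 47.6 in SW620.

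HSPD1 is the subunit of the Hsp60 folding barrel (chromosome 2, 197486581 to 197516737, minus strand, GENCODE 29 on GRCh38, 12 exons in the principal transcript). Its counts were 10501 in control and 6840 in knockdown SW480 cells, and 6731 in control and 19151 in knockdown SW620 cells. On the CPM scale these were 1093, 1032, 1234 and 1424. Both SW620 libraries were above both SW480 libraries, and knockdown lay below control in SW480 and above it in SW620. The knockdown log2 fold change over both lines was 0.06 (SE 0.091, 95% interval -0.12 to 0.24, edgeR adjusted p = 0.967). This difference was smaller than its standard error. The annotation names 17 HSPD1 pseudogenes, of which 0 had a row, and HSPE1 exons on the opposite strand cover 2.2% of the principal transcript. How reads were shared among these copies is not given in the sources used here.

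HSPE1 encodes Hsp10, the lid of that barrel (chromosome 2, 197499994 to 197503457, plus strand, 4 exons). Only 164 and 82 counts were found in control and knockdown SW480 cells, and 77 and 163 in control and knockdown SW620 cells. The level was 17.1 CPM in control and 12.4 CPM in knockdown SW480 cells, and 14.1 CPM in control and 12.1 CPM in knockdown SW620 cells. HSPE1 was the 1 gene of the 10 that was lower after knockdown in both lines, by sign, as were 24.7% of all genes. Its log2 fold change was -0.34 (SE 0.22, 95% interval -0.78 to 0.09, edgeR adjusted p = 0.745), the widest interval of the 10 genes. The row is uncertain as a measure of the gene. In GENCODE 29, 29.6% of its principal transcript overlaps exons of HSPD1 on the opposite strand, and 20.2% overlaps HSPE1-MOB4, a readthrough gene on the same strand whose row was at 0 in all 4 libraries. The annotation names 26 HSPE1 pseudogenes, and 0 of them had a row. How reads were shared among these copies, and whether strand was used, is not given in the sources used here, and their part in the low counts was not tested.

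The barrel and its lid can be set against each other per length of transcript. HSPD1 was 24.8 times as high as HSPE1 in control SW480 cells, 32.3 times in knockdown SW480 cells, 33.8 times in control SW620 cells and 45.5 times in knockdown SW620 cells. The counting intervals, control first, were 21.2 to 28.9 and 26.0 to 40.1 in SW480. In SW620 they were 27.0 to 42.3 and 39.0 to 53.0. The ratio was higher in knockdown than in control cells of each line. The intervals overlapped within each line, which does not show that the ratios were equal. The change of the ratio had no interval of its own and no test. All these ratios carry the uncertainty of the HSPE1 row given above, which the counting intervals do not cover.

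HSPA9, also called mortalin, drives import and folding in the matrix (chromosome 5, 138553756 to 138575724, minus strand, 17 exons). It had 6458 and 4201 counts in control and knockdown SW480 cells, and 2995 and 8584 in control and knockdown SW620 cells. Levels were 672 and 634 CPM in SW480 and 549 and 638 CPM in SW620, control first. Control SW620 cells were the lowest of the 4, and the other 3 libraries lay close together. The log2 fold change was 0.07 (SE 0.098, 95% interval -0.13 to 0.26, edgeR adjusted p = 0.969). DNAJA3 is a J-domain protein that stimulates HSPA9 (chromosome 16, 4425805 to 4456775, plus strand, 12 exons). Its counts were 1255 and 754 in SW480 and 668 and 1856 in SW620, control first, which scaled to 131, 114, 122 and 138 CPM. The groups overlapped, since knockdown gave both the lowest and the highest library. Its log2 fold change was -0.01 (SE 0.12, 95% interval -0.25 to 0.22, edgeR adjusted p = 0.997). Per length, HSPA9 was 2.62 to 3.26 times as high as DNAJA3 in the 4 libraries.

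TRAP1 is the Hsp90 paralog of the matrix and is often studied in tumor cells (chromosome 16, 3651639 to 3717597, minus strand, 18 exons). Counts were 4278 in control and 2915 in knockdown SW480 cells, and 2510 in control and 6823 in knockdown SW620 cells. The matching levels were 445, 440, 460 and 507 CPM, with the 2 SW480 libraries nearly equal and knockdown SW620 cells the highest. The log2 fold change was 0.06 (SE 0.10, 95% interval -0.14 to 0.26, edgeR adjusted p = 0.974). Exons of DNASE1 on the opposite strand cover 37.7% of the principal TRAP1 transcript. DNASE1 had 168 to 464 counts in the 4 libraries, and without a stated use of strand its reads and those of TRAP1 cannot be told apart there.

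The matrix proteases are LONP1, which acts alone as a ring of identical subunits, and CLPP, a peptidase chamber that is fed by the unfoldase CLPX. LONP1 (chromosome 19, 5691834 to 5720572, minus strand, 18 exons) had 2715 and 1661 counts in SW480 and 1458 and 3876 in SW620, control first. Its levels were 283, 251, 267 and 288 CPM, and its log2 fold change was -0.03 (SE 0.11, 95% interval -0.25 to 0.18, edgeR adjusted p = 0.986). Knockdown cells again held both the lowest and the highest value. CLPP (chromosome 19, 6361452 to 6368910, plus strand, 6 exons) had 768 and 429 counts in SW480 and 363 and 1008 in SW620. That came to 80.0, 64.7, 66.6 and 74.9 CPM, with a log2 fold change of -0.07 (SE 0.13, 95% interval -0.33 to 0.19, edgeR adjusted p = 0.978). In SW480 knockdown lay lower, and in SW620 higher. CLPX (chromosome 15, 65148219 to 65185342, minus strand, 14 exons) had 660 and 449 counts in SW480 and 340 and 925 in SW620. Scaled, these were 68.7, 67.7, 62.3 and 68.8 CPM, and the log2 fold change was 0.06 (SE 0.13, 95% interval -0.20 to 0.32, edgeR adjusted p = 0.980). CLPX had the narrowest range of the 10 genes, 1.10-fold from its lowest to its highest library. Per length, CLPP was 3.88 to 4.72 times as high as CLPX.

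YME1L1 and AFG3L2 are zinc proteases of the inner membrane, YME1L1 with its active site toward the intermembrane space and AFG3L2 toward the matrix. YME1L1 (chromosome 10, 27110112 to 27155266, minus strand, 19 exons) gave 2175 and 1426 counts in SW480 and 1044 and 2784 in SW620, control first. Its levels were 226, 215, 191 and 207 CPM, so that both SW480 libraries were above both SW620 libraries. The knockdown log2 fold change was 0.02 (SE 0.11, 95% interval -0.20 to 0.24, edgeR adjusted p = 0.994). AFG3L2 (chromosome 18, 12328944 to 12377314, minus strand, 17 exons) gave 1064 and 688 counts in SW480 and 535 and 1337 in SW620. At 111, 104, 98.1 and 99.4 CPM it was likewise above in both SW480 libraries, with a knockdown log2 fold change of -0.04 (SE 0.12, 95% interval -0.28 to 0.21, edgeR adjusted p = 0.986). Exons of TUBB6 on the opposite strand cover 23.2% of the principal AFG3L2 transcript, and TUBB6 had 2099 and 950 counts in SW480 and 278 and 712 in SW620, control first. The part of that overlap in the AFG3L2 counts was not tested. YME1L1 was 1.64 to 1.75 times as high as AFG3L2 per length.

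**Figure D2:**
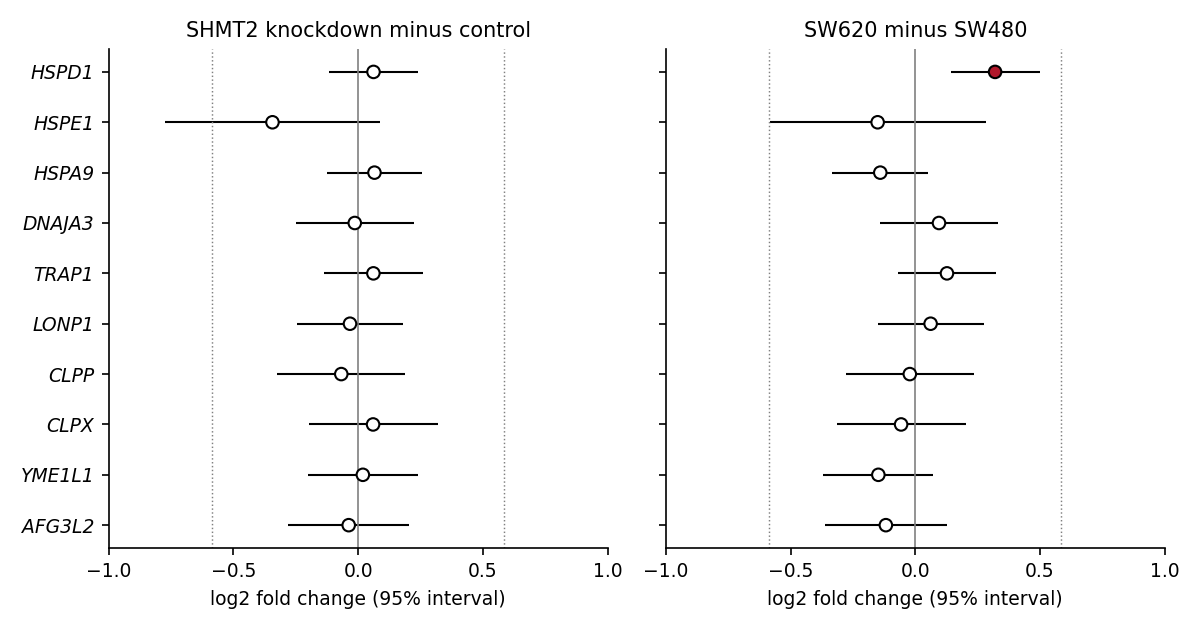
Log2 fold change of each gene with its 95% interval from edgeR's quasi-likelihood fit, for SHMT2 knockdown against control (left) and SW620 against SW480 (right). Red fill marks an adjusted p under 0.05 and the dotted lines mark 1.5-fold in either direction. All 10 knockdown intervals include 0, and HSPD1 in the right panel is the 1 point called, at 0.32.

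Per kilobase of the principal transcript, the order of levels over the 4 libraries began with HSPD1 at 420 to 580 CPM per kb, TRAP1 at 191 to 221 and HSPA9 at 116 to 142. LONP1 followed at 77.4 to 89.0, then CLPP at 55.9 to 69.1, YME1L1 at 49.6 to 58.7 and DNAJA3 at 41.2 to 49.9. AFG3L2 at 30.2 to 34.1, HSPE1 at 12.8 to 18.0 and CLPX at 13.3 to 14.6 were the lowest. The ranges of CLPP and YME1L1, of YME1L1 and DNAJA3, and of HSPE1 and CLPX overlapped, so these neighbors were not separated beyond the spread of the libraries. Within each of the 4 libraries CLPP was above YME1L1, but in knockdown SW480 cells only by 55.9 against 55.8 CPM per kb. YME1L1 was above DNAJA3 in each of the 4 libraries, while HSPE1 and CLPX changed order between libraries. The ranges of all other neighbors in the order did not overlap. This order and the ratios per length rest on the transcript lengths used, which include untranslated parts. HSPA9 was taken as 4727 bases, of which 2037 are coding, and TRAP1 as 2296 bases, of which 2112 are coding. Other lengths can change the order, and which transcripts the cells made was not tested. The place of HSPE1 also rests on a row that is uncertain as a measure of the gene.

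The levels of these genes were also compared between the 2 lines. At a Benjamini-Hochberg adjusted p under 0.05 in edgeR's quasi-likelihood fit, 1 of 10 was called between SW620 and SW480, against 63.6% of all genes tested. The median size of the log2 fold change was 0.12 over the 10 genes and 0.58 over all genes. HSPD1 was the gene called, higher in SW620 by 0.32 on the log2 scale (SE 0.091, 95% interval 0.14 to 0.50, edgeR adjusted p = 0.000962). The difference was 0.17 between the control libraries and 0.46 between the knockdown libraries. The SE and the adjusted p rest on the spread shared by all genes, not on that of HSPD1 alone. With the DESeq2 Wald test the HSPD1 value was 0.30 and the adjusted p was 0.0507, so the call was not kept. The other values ran from -0.15 for HSPE1 (95% interval -0.58 to 0.28) to 0.13 for TRAP1 (95% interval -0.07 to 0.33).

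Within a library, ratios between members need no scaling. Per length, HSPD1 was 3.13 times as high as HSPA9 in control SW480 cells (counting interval 3.04 to 3.23) and 3.13 times in knockdown SW480 cells (3.02 to 3.26). In SW620 the ratio was 4.33 in control cells (4.14 to 4.52) and 4.30 in knockdown cells (4.19 to 4.41). The intervals overlapped between the treatments within each line and did not overlap between the lines. They cover counting error only. HSPD1 alone made up 35.0% and 35.2% of the counts of the 10 genes in SW480 and 40.3% and 41.2% in SW620, control first.

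Taken line by line, knockdown was accompanied by small shifts of opposite sign. All 10 genes were lower in knockdown than in control SW480 cells, and 9 of 10 were higher in knockdown than in control SW620 cells. The pattern of lower in SW480 and higher in SW620 was shown by those 9 and by 22.5% of all genes tested. The shifts in SW480 ran from -0.46 for HSPE1, -0.30 for CLPP and -0.20 for DNAJA3 to -0.02 for TRAP1 and CLPX on the log2 scale. In SW620 they ran from -0.22 for HSPE1 and 0.02 for AFG3L2 to 0.21 for HSPD1 and 0.22 for HSPA9. The median was -0.09 in SW480 and 0.14 in SW620, while over all genes tested it was 0.005 and 0.0003. Each value compares 1 library with 1 other, so it had no test, and depth moved with it, since the knockdown library had the fewer counts in SW480 and the more counts in SW620. Thinned to the smallest total, 8 of 10 genes showed the pattern, and scaled by library totals alone 7 of 10 did.

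**Figure D3:**
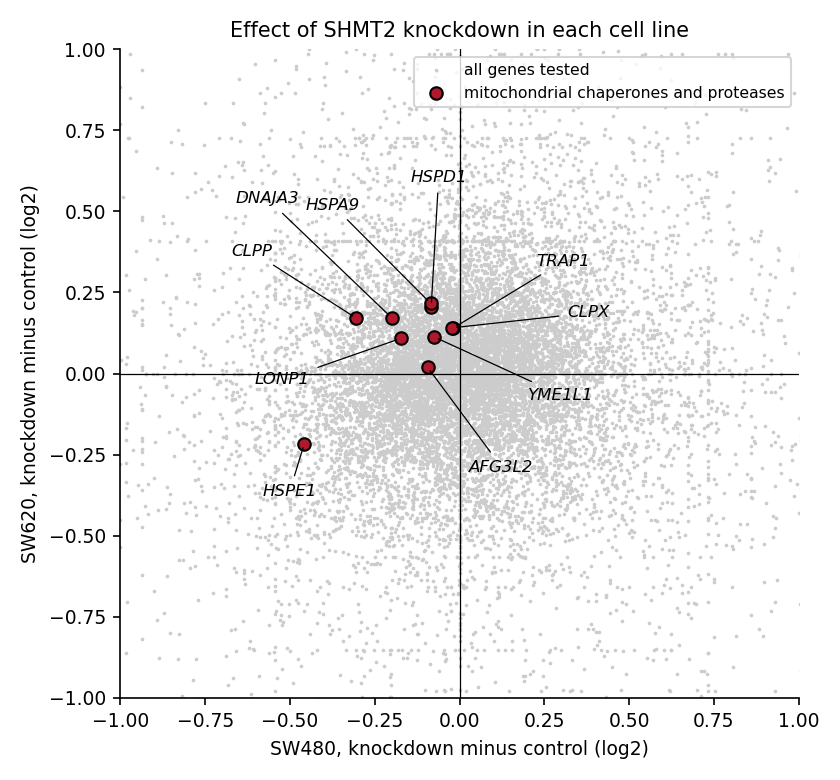
Knockdown minus control in SW480 (horizontal) against the same in SW620 (vertical), both as log2 of scaled CPM, for all genes tested (gray) and the 10 mitochondrial chaperones and proteases (red, labeled). The axes end at 1 in each direction, and 645 genes lie outside them. Apart from HSPE1 at the lower left, the 10 genes lie in the upper left part, where SW480 is lower and SW620 higher.

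The machinery around these genes was taken from lists of the other subunits, cofactors and import proteins. Of 42 further genes of mitochondrial protein quality control tested, 0 were called after knockdown by edgeR, against 1.66% of all genes. At that share, 0 calls in a list of this size says little about its genes. The DESeq2 Wald test called 0 as well, where any gene without an adjusted p was counted as not called. Before adjustment, 2 had a P of 0.05 or less in edgeR, both lower, against 9.06% of all genes in either direction. The median log2 fold change of the 42 was -0.02. Of the cofactors of the Hsp70 system, GRPEL1, the nucleotide exchange factor, had a value of -0.01, and CLPB, the disaggregase of the intermembrane space, had -0.17. The gene with the smallest P was HTRA2, a protease of the intermembrane space, at 70.2 and 65.8 CPM in SW480 and 73.2 and 50.6 CPM in SW620, control first. Its log2 fold change was -0.31 (SE 0.13, edgeR adjusted p = 0.337), and its shift of -0.53 in SW620 went against that of 9 of the 10 chaperones and proteases. TOMM40, the channel of the outer membrane, had -0.25 (SE 0.11, edgeR adjusted p = 0.407), with 206 and 150 CPM in SW480 and 206 and 198 CPM in SW620. ATF4, ATF5 and DDIT3, factors of the mitochondrial stress response, had values of 0.12, -0.26 and -0.19, and 0 of 8 genes of that list were called. The ATF4 value averages shifts of opposite sign, which were -0.17 in SW480 cells and 0.40 in SW620 cells. Their difference of 0.57 (counting interval 0.48 to 0.66) was larger than that of each of the 10 chaperones and proteases and was not tested. ATF4 was not alone in this. The difference was 0.89 for CEBPB (0.34 to 1.44), 0.56 for GRPEL1 (0.34 to 0.78) and 0.55 for TIMM17A (0.28 to 0.81). GRPEL1 shifted by -0.29 in SW480 and by 0.27 in SW620. Of the 42 genes, 15 were lower in SW480 and higher in SW620, as were 22.5% of all genes, and 10 were the reverse. The gene for PAM16, which recruits a J-domain protein to the import motor, was not tested, with 0 to 3 counts per library.

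The same 42 genes were compared between the lines. In SW620 against SW480, 20 of 42 were called by edgeR (47.6%), 7 higher and 13 lower in SW620, beside 63.6% of all genes. The inner membrane protease subunit SPG7, a partner of AFG3L2, was lower by 0.56 on the log2 scale in SW620 (adjusted p = 5.05e-05), while AFG3L2 itself had -0.12 (95% interval -0.36 to 0.13). The scaffold pair PHB and PHB2, which surround the AFG3L2 protease, differed in opposite directions, with PHB at -0.52 and PHB2 at 0.63. The exchange factor GRPEL2 was at -0.57, while its paralog GRPEL1 had 0.11 and was not called.

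Chaperones of other compartments were counted the same way. Of all genes tested, edgeR called 1.66% after knockdown, and 9.06% had an unadjusted P within 0.05. With 1.66% called, 0 calls in lists this short says little about their genes. Among 21 cytosolic chaperones 0 were called after knockdown by edgeR, 1 had an unadjusted P within 0.05, and the median was -0.12. That gene was HSPA1B, an inducible Hsp70, at -0.33 (edgeR adjusted p = 0.317), which is nearly identical to HSPA1A, so that reads of the pair are uncertain. STIP1, which links Hsp70 and Hsp90, had -0.18, and HSP90AA1 had -0.15. All 21 were lower in knockdown than in control SW480 cells, and 10 of them were higher in SW620. Of all 14024 genes, 6705 were lower in SW480 and 7016 were higher in SW620. Among 15 chaperones of the endoplasmic reticulum edgeR called 0, 1 had an unadjusted P within 0.05, and the median was 0.04. DNAJB11, a J-domain partner of HSPA5, was that gene, with 90.0 and 59.7 CPM in SW480 and 95.3 and 81.5 CPM in SW620, control first, and a log2 fold change of -0.40 (SE 0.13, edgeR adjusted p = 0.0805). DNAJB9 had 0.43 and SDF2L1 had -0.25, and neither passed. Of 75 mitochondrial ribosomal protein genes edgeR called 0, 2 had an unadjusted P within 0.05, both lower, and the median was -0.06.

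**Figure D4:**
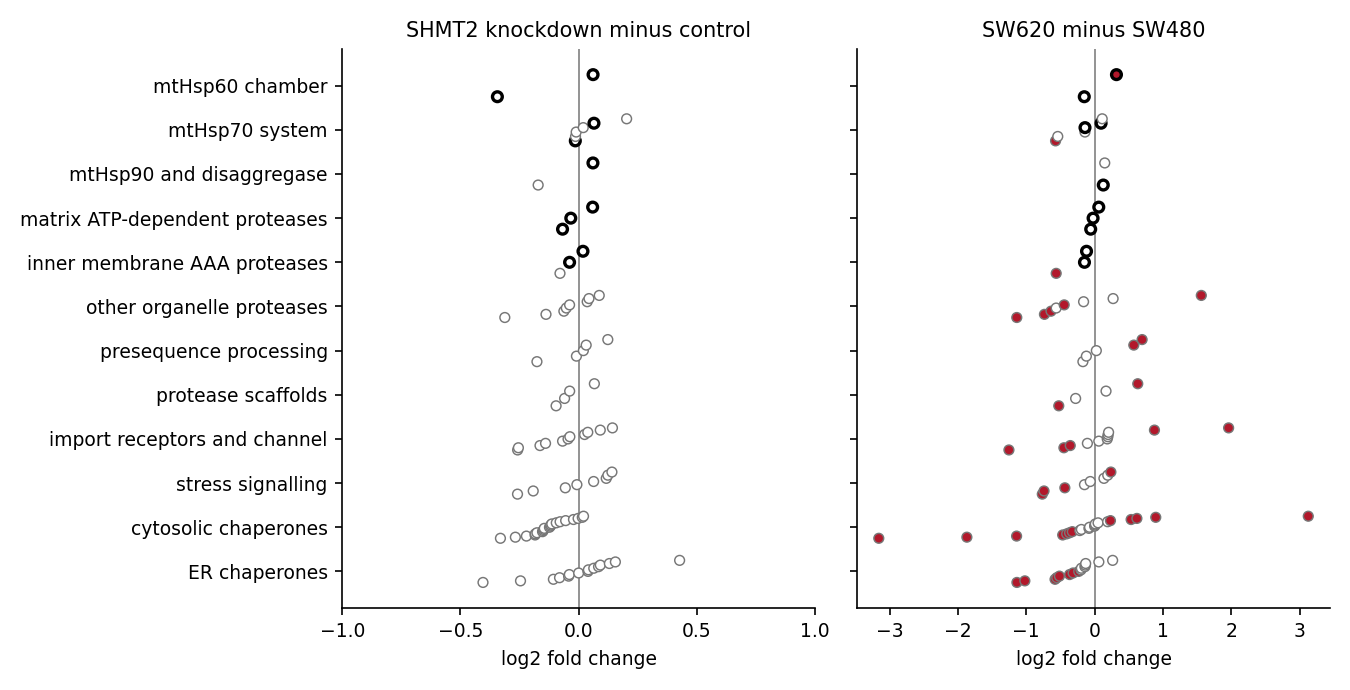
Log2 fold changes of the genes tested in each list, for SHMT2 knockdown against control (left, axis from -1 to 1) and SW620 against SW480 (right, wider axis). Thick black edges mark the 10 chaperones and proteases, gray edges the other genes, and red fill an adjusted p under 0.05 in edgeR's test. No point is red at the left, while at the right red points lie on both sides of 0. The points beyond 3 in size are HSPA1A at 3.13 and HSPA1B at -3.16, the nearly identical pair whose reads are uncertain.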

How the data were processed

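RNA of the 4 samples was sequenced from Illumina TruSeq libraries. The authors deposited a table of raw counts per gene (26364 symbols), with no scaling; the submitters' processing notes name Bowtie 0.12.2 and hg18, while the annotation, the counting program and the use of strand are not given in the sources used here. The study's text names both RNA-seq and a microarray, and the values are whole numbers with totals of 5530129 to 13774288. A gene was kept if 2 or more libraries held 10 or more counts (14024 genes). Counts were scaled by TMM and fitted in R 4.3.3 with edgeR 4.0.16 (quasi-likelihood, two-sided, Benjamini-Hochberg over all genes tested), with terms for cell line and treatment and 1 residual degree of freedom; the spread was shared by all genes (coefficient of variation 9.05%). SEs and intervals follow from the F statistic. DESeq2 1.42.0 was an alternative. The cell line pairs the libraries (across genes, deviations of the SW480 pair had r = 0.961). A prior count of 2 was used for log2 values of single lines.

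The members and lists were chosen with earlier results of these data known. Named were all 10 members, SHMT2, genes of the other mitochondrial protein quality control lists with P of 0.05 or less, the 3 cytosolic and 3 endoplasmic reticulum chaperones of smallest P, and overlapping rows. GRPEL1, GRPEL2, CLPB, SPG7, PHB, PHB2, ATF4, ATF5, DDIT3, CEBPB, TIMM17A, PAM16, HSPA1A and the cell type markers printed were added after their values were seen. Lengths and positions came from GENCODE 29 (GRCh38), not the build of the notes, and promoters from RefSeq. The fit was run on simulated counts with the same spread for all genes and the same effect in both lines. That run cannot check whether a shared spread holds for these data. Alternatives were no cell line term, DESeq2's size factors and test, other count filters, thinning to the smallest total, a 1.5-fold limit, another prior count, and each line left out.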

Additional observations from a re-analysis of the deposited data

Results flagged for a closer look

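In 9 of the 10 genes the shift after SHMT2 knockdown had opposite signs in the 2 cell lines, lower in SW480 and higher in SW620. The difference between the lines was not tested, since each effect rests on 1 library against 1 other, and the intervals given cover counting error only. The effect in SW620 minus the effect in SW480, on the log2 scale, was 0.47 for CLPP (counting interval 0.23 to 0.72), 0.37 for DNAJA3 (0.19 to 0.55), 0.30 for HSPA9 (0.22 to 0.38) and 0.29 for HSPD1 (0.23 to 0.35). It was 0.28 for LONP1 (0.16 to 0.41), 0.19 for YME1L1 (0.05 to 0.33) and 0.16 for TRAP1 (0.06 to 0.25). For CLPX it was 0.16 (-0.09 to 0.41) and for AFG3L2 0.11 (-0.09 to 0.31), both with intervals that include 0. The same pattern of signs was shown by 22.5% of all genes tested.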

How the results depend on the processing

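The count of the 10 genes called after knockdown was 0 under every alternative run. The fit without the cell line, that is without the pairing, called 0 genes in the whole table. A 1.5-fold limit can only remove calls, so neither of these adds to the result for the members. For HSPE1 DESeq2 gave no adjusted p after knockdown. Values near 0 changed sign on thinning to the smallest total, to 0.00477 for DNAJA3 and 0.0335 for CLPP after knockdown and to 0.0173 for CLPP between the lines; the cause was not tested. In SW620 against SW480 the count called went from 1 to 0 with the DESeq2 Wald test and with a limit of 1.5-fold, which HSPD1 at 0.32 does not reach. The median of the 42 further mitochondrial genes was -0.02 and ranged from -0.0908 without the SW620 libraries to 0.00202 without the SW480 libraries. Over all genes, the fit with the cell line called 164 lower and 69 higher after knockdown, the fit without it 0 and 0, the DESeq2 Wald test 21 and 5, a filter of 50 counts 54 and 15, and thinning 49 and 14. Between the lines edgeR called 4394 lower and 4532 higher, and DESeq2 2826 and 2680. The pattern of opposite signs was recounted under other scalings after the data were seen, and held in 9 genes with DESeq2's size factors, 8 after thinning and 7 with library totals alone. With 1 residual degree of freedom per gene, changes within the intervals given could not be detected, and the interval was widest for HSPE1 at 77 to 164 counts. The intervals use the spread shared by all genes, and whether it holds for each member was not tested.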

Other observations

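Rows named as a readthrough of 2 genes were nearly empty. Of 121 such rows whose partner genes also had rows, 119 had under 10 counts in every library. Of the 240 partner genes 51.7% had under 10 counts in every library, against 43.6% of all rows in the table. Among these partners were MOB4, the neighbor of HSPE1, with 0, 0, 1 and 0 counts, and PAM16, with 3, 0, 1 and 1 counts, both in the order control and knockdown SW480, then control and knockdown SW620. CORO7-PAM16 was at 0 in all 4 libraries, and CORO7 had 14 to 68 counts.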
